A study of Mus musculus with 2 samples.

Results

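The genes described here serve antigen presentation. They were taken by symbol from the deposited table of RNA recovered with an antibody against nucleolin or with a control IgG. Every symbol beginning with H2-, the prefix of the mouse major histocompatibility complex (MHC), was taken, 42 in all, together with B2m, Cd74, Tap1, Tap2, Tapbp, Ciita, Erap1, Cd40, Cd80 and Cd86. This gave 52 genes of the 23924 symbols in the table. The 42 symbols divide into 3 classical class I heavy chains, 27 other class I heavy chains, 10 class II chains, and H2-Ke2 and H2-Ke6, which lie in the same region but encode no MHC chain.

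Both libraries came from RAW 264.7 cells, a mouse macrophage line, that had been depleted of mRrp6 (the nuclear exosome ribonuclease, gene Exosc10) and exposed to LPS, a component of the bacterial outer membrane, at 80 ng/ml for 12 h. By the labels and the design text the control and the nucleolin sample share the depletion and the LPS and differ in the antibody, a control IgG (given in the protocol as anti-rabbit IgG) against anti-nucleolin. Those of the listed gastric, pancreatic and epithelial markers that were measured were above 0 in the IgG library alone, with the values given at the end. Nucleolin is an abundant RNA-binding protein of the nucleolus, and the precipitation was made from nuclear extract, so the values describe RNA that stayed on the beads and not the level of a transcript in the cell. There was 1 library per antibody. No difference below has a replicate check, and no p-value is given. RAW 264.7 derives from BALB/c mice, whose MHC alleles differ from those of the C57BL strain behind the genome build used, and what this does to the H2 values was not tested.

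MHC class I molecules consist of a polymorphic heavy chain and beta-2 microglobulin. They carry peptides made in the cytosol, which the TAP transporter brings into the endoplasmic reticulum and tapasin helps to load. Class II molecules pair an alpha and a beta chain, travel with the invariant chain (Cd74) and are loaded in endosomes with peptides from ingested protein. Macrophages carry both, and LPS and interferon are known to raise the transcription of many of these genes.

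Of the 52 genes 13 were measured, meaning that they reached 1 FPKM in at least 1 library (FPKM counts fragments per kilobase of transcript, scaled to the mapped fragments of the library). That is 25% of them, against 13.4% of all symbols. The difference used is log2((nucleolin FPKM + 1) / (IgG FPKM + 1)), and a gene is called at 2-fold. A gene at 0 in a library passes the minimum only through the other library and is then always called. By this call 6 of the 13 were higher in the nucleolin library and 5 were lower, beside 37.8% and 56.7% of the 3194 genes compared, and 5 of the higher and 4 of the lower ones were at 0 in the other library. Their median log2 difference was 0.70, that of all compared genes -1.27. Among the 13, 4 were listed in both libraries, 4 in the IgG library only and 5 in the nucleolin library only. The same shares over all compared genes were 16.8%, 46% and 37.1%. In sum the 52 genes held 483 FPKM with IgG and 357 FPKM with anti-nucleolin. Of the 8 measured H2 genes 7 were at 0 in 1 library, so their direction was fixed once they passed the minimum, and their sides are given below as values only.

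**Figure D1:**
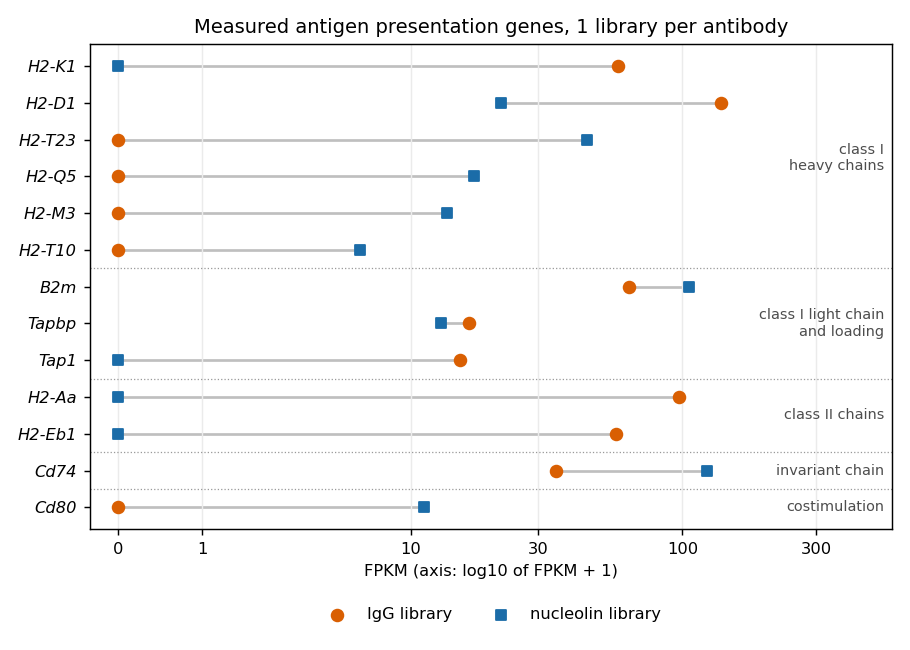
FPKM of the 13 measured genes in the IgG library (circles) and the nucleolin library (squares), 1 library each, on an axis of log10(FPKM + 1). H2-K1, H2-Aa, H2-Eb1 and Tap1 are at 0 in the nucleolin library. H2-T23, H2-Q5, H2-M3, H2-T10 and Cd80 are at 0 in the IgG library.

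The number of reads behind each value is small, and it could be estimated from the table. For genes with 1 transcript row, FPKM followed whole reads times a fixed worth. In the IgG library that worth was 42252 divided by the transcript length less 203 bases, and in the nucleolin library 16423 divided by the length less 234 bases. A transcript of 1000 bases thus gained 53.0 FPKM from 1 read in the IgG library and 21.4 FPKM from 1 read in the nucleolin library. The worth of a read was 2.57 times higher in the IgG library, and genes with 1 read in each had a median log2 difference of -1.22. The 2-fold call thus counts most genes with 1 read in each as lower. Of 369 genes with 1 row and values above 1 FPKM in both libraries, 337 (91.3%) matched a pair of at most 8 whole reads per library within 3 bases of implied transcript length, and 154 of them matched 1 read in each. The nucleolin figures were fitted on 149 genes of this same set, taken as 1 read in each library. The matches of 1 read in each were thus largely set by the fit and are no check of it. How many genes would match by accident was not computed. A 0 in a library is read here as up to 3 reads. An IgG-only gene needs at least 2 reads for its level to exceed that limit in the nucleolin library, and a nucleolin-only gene needs at least 8. The limits cover the counting error of the 0 only and take the listed value as exact. A level above its limit is therefore not called a difference between the libraries. The intervals below cover counting error only.

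**Figure D2:**
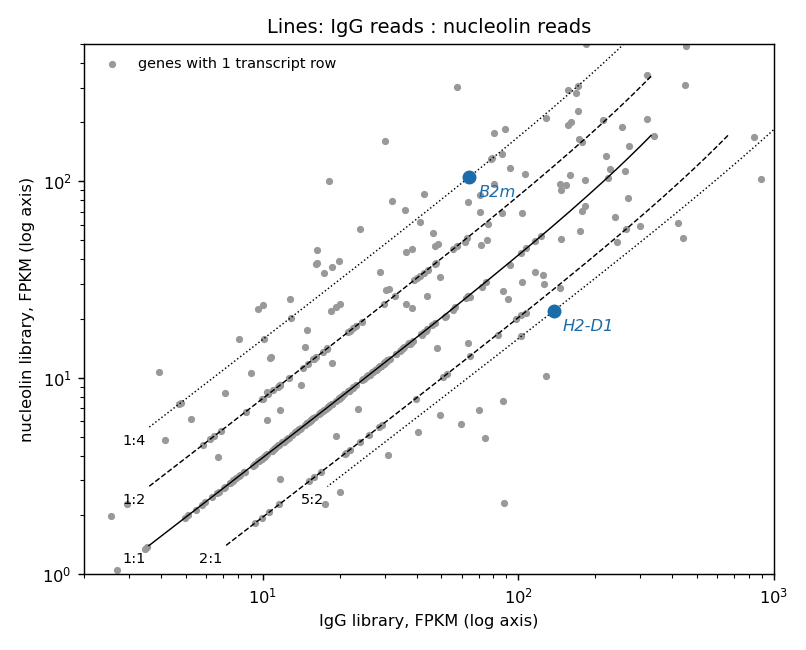
IgG FPKM against nucleolin FPKM, both on log axes, for genes with a single transcript row that both libraries list; lines show where a given pair of IgG and nucleolin reads falls as transcript length varies, and genes outside the axes are not drawn. Most genes lie on the lines of small whole numbers, B2m on that of 1 to 4 reads and H2-D1 on that of 5 to 2.

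H2-K1 and H2-D1 encode the classical heavy chains that show peptides to CD8 T cells. H2-D1 (chromosome 17, 35263094 to 35267497; mm10 is GRCm38, as are all positions here) was at 138 FPKM with IgG and 21.9 FPKM with anti-nucleolin, a log2 difference of -2.60. The values matched 5 and 2 reads on a transcript of 1736 bases. The FPKM ratio was 0.159 with an exact (Clopper-Pearson) 95% interval from 0.0151 to 0.969, whose upper end lies just under 1; it compares these libraries, not the antibodies. The log2 difference was -1.33 after centring on all genes and -1.38 after setting 1 read equal. Counted as reads alone, the 0.4 nucleolin reads per IgG read had an interval from 0.0381 to 2.44, which spans 1. H2-K1 (chromosome 17, 33996012 to 34000619) was at 58.5 FPKM with IgG and 0 with anti-nucleolin. Its IgG value equals 1 read on a transcript of 924 bases, 2 reads on 1646 bases or more on a longer one, with at most 6 reads if the transcript is no longer than the gene. At 1 read the 0 in the nucleolin library allows up to 71.4 FPKM, which is above the IgG value, and at 2 reads up to 34.9 FPKM, which is below it. The third classical gene, H2-L, had 0.00348 FPKM with IgG and 0.0119 FPKM with anti-nucleolin, far below the worth of a read on any transcript, so its row holds only small fractions of reads that the quantification divided among rows. Reads shared between near-identical heavy chain genes are therefore uncertain in this family.

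Letters just upstream of the transcription start are shown for members that the results turn on: both classical heavy chains and both class II chains, listed lower or at 0 in the nucleolin library, and the light chain and H2-T23, which were not. Each is the 210 bases before the annotated start, 5' to 3' on the gene's strand, from RefSeq (GRCm38.p6). For H2-K1 the RefSeq promoters hold 2 starts inside the gene's span, and the first listed was used, so its distances upstream are from that start. Capitals mark matches to 4 motifs.
H2-K1, chr17:34000348-34000557, minus strand: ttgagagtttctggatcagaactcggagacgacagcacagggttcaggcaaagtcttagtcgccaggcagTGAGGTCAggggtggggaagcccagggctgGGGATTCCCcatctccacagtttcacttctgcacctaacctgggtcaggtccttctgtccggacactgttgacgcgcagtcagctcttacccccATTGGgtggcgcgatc
H2-D1, chr17:35262884-35263093, plus strand: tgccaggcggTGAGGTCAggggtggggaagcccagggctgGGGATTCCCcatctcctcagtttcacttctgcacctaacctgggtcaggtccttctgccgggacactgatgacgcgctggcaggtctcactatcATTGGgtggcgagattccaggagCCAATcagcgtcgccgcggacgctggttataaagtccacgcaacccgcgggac
H2-Aa, chr17:34287824-34288033, minus strand: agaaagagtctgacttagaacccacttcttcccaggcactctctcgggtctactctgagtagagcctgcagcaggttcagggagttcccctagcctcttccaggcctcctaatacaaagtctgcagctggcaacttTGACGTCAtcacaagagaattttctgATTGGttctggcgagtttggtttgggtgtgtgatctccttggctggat
H2-Eb1, chr17:34305657-34305866, plus strand: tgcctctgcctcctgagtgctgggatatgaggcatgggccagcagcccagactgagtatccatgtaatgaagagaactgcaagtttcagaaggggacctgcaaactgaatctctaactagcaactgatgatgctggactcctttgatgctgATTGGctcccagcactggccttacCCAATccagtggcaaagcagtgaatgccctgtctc
B2m, chr2:122147477-122147686, plus strand: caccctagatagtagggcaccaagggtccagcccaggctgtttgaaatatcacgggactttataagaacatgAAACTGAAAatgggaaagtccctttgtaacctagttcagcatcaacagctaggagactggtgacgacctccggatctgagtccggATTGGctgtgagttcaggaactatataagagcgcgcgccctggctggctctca
H2-T23, chr17:36032702-36032911, minus strand: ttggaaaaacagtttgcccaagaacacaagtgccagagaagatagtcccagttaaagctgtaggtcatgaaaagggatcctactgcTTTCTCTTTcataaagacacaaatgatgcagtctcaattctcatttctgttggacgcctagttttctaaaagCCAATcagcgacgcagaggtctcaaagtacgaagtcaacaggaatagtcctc

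The motifs were searched on both strands in the 250 bases before the start and do not overlap in these 6 sequences. They were the core of enhancer A (GGGATTCCC), a site for NF-kappa B known from class I promoters, the CCAAT box (CCAAT), an element of the kind called X2 or CRE (TGANGTCA), and the core of the interferon response element (TTTCNNTTT). The enhancer A core was found in H2-K1, starting 110 bases upstream, and in H2-D1, starting 170 bases upstream, and in 0.301% of 32851 promoters of the same length. Around it H2-K1 and H2-D1 share an unbroken run of 47 bases, the longest between any of the 10 measured members with a promoter in the table; the next longest, between H2-D1 and H2-T23, was 12 bases. TGANGTCA was found in H2-K1, H2-D1 and H2-Aa and in 7.49% of all promoters. In H2-K1 and H2-D1 the letters are TGAGGTCA, starting 140 and 200 bases upstream, farther from the start than the enhancer A core. In H2-Aa they are TGACGTCA, starting 74 bases upstream. These are matches by letters alone, and whether any of them is an X2 or CRE element was not tested. The interferon core was found by its exact letters in B2m and H2-T23 and in 9.37% of all promoters. Both H2-K1 and H2-D1 hold tttcacttc downstream of the enhancer A core. It differs from the searched pattern in its last letter only and is therefore not marked. A CCAAT match was found in 9 of the 10 members and in 33.8% of all promoters. The motifs describe the promoters, and the RNA values were not tested against them.

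The other class I heavy chains, called non-classical, vary less between strains and have specialised ligands. Of 27 such symbols 4 were measured (14.8%, beside 13.4% of all symbols), and 23 were at 0 in both libraries. All 4 were listed in the nucleolin library only, as were 37.1% of all compared genes, with 82.9 FPKM in sum against 0. H2-T23 (chromosome 17, 36029977 to 36032701) encodes Qa-1, which presents signal peptides of other class I chains to natural killer cell receptors. It was at 0 with IgG and 45.5 FPKM with anti-nucleolin, the highest value of the group there and above that of H2-D1. H2-Q5 (chromosome 17, 35394099 to 35395630), a gene of the Q region listed with a non-coding RNA accession, was at 0 and 17.3 FPKM. H2-M3 (chromosome 17, 37270234 to 37274485), which presents N-formylated bacterial peptides, was at 0 and 13.8 FPKM. H2-T10 (chromosome 17, 36115871 to 36121444), whose product is recognised by gamma-delta T cells, was at 0 and 6.25 FPKM, 5.91 of it on the coding transcript and 0.344 on a non-coding one.

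By gene span, H2-T23 can hold at most 6 reads, H2-M3 at most 3 and H2-Q5 at most 1, and the main H2-T10 transcript at most 1. None of the 4 reaches the 8 reads that would put its nucleolin level above what a 0 in the IgG library allows. For H2-T23 that limit was 323 FPKM if 1 read is assumed and 57.7 FPKM at 6 reads, both above 45.5. A difference between the libraries was thus not detectable at this depth for any single non-classical gene. With both kinds of heavy chain added, the sum was 196 FPKM with IgG and 105 FPKM with anti-nucleolin. The log2 difference of the sums was -0.90 as deposited, and it turned to 0.37 after centring on all genes and to 0.32 after setting 1 read equal between libraries, both of which add a constant to every gene.

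B2m (chromosome 2, 122147687 to 122153082), which encodes beta-2 microglobulin, the light chain of every class I molecule, was at 64.5 FPKM with IgG and 105 FPKM with anti-nucleolin. The ratio was 1.63, and the log2 difference of 0.70 was under 2-fold. After centring on all genes it was 1.97 and after setting 1 read equal 1.92, both past 2-fold, which makes 7 members called higher. The values matched 1 and 4 reads on 858 bases, with an exact 95% interval of the ratio from 0.162 to 80.4. A pair of 6 and 25 reads on 4135 bases matched as well, and its interval, from 0.654 to 4.87, also spans 1. The summed heavy chains stood at 3.05 times the B2m level in the IgG library and at 0.995 times in the nucleolin library. The IgG value of B2m is 1 read at the smallest pair, and of the 6 measured heavy chains 1 was listed in both libraries. No interval was computed for these 2 ratios, and a change of balance between the chains was not tested.

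Of the 5 genes for the light chain and peptide loading, B2m among them, 3 were measured (60%), beside 13.4% of all symbols. Tapbp (chromosome 17, 33919478 to 33929290), which encodes tapasin, was at 16.6 FPKM with IgG and 13.1 FPKM with anti-nucleolin. Its 2 transcript rows carried nearly equal values, and they matched 1 IgG read and 2 nucleolin reads divided evenly over transcripts of 2743 and 2755 bases. The ratio was 0.787 with an exact 95% interval from 0.0410 to 46.4, and its log2 difference of -0.32 turned to 0.94 after centring and to 0.90 after setting 1 read equal. Tap1 (chromosome 17, 34187556 to 34197225), a subunit of the peptide transporter, was at 15.4 FPKM with IgG and 0 with anti-nucleolin. That equals 1 read on 2950 bases and at most 3 reads by gene span, and at 1 read the 0 allows up to 18.1 FPKM, above the IgG value, and at 2 reads up to 9.02 FPKM, below it. Its partner subunit Tap2 and Erap1, the aminopeptidase that trims peptides for class I, were listed at 0 in both.

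Of the 10 class II chains 2 were measured, both in the IgG library only, as were 46% of all compared genes. H2-Aa (chromosome 17, 34282744 to 34287823), the alpha chain of I-A, was at 97.5 FPKM with IgG and 0 with anti-nucleolin. H2-Eb1 (chromosome 17, 34305867 to 34316674), the beta chain of I-E, was at 57.6 and 0. The other 8 of the 10 class II symbols were listed at 0 in both libraries, among them H2-Ab1 (the beta partner of H2-Aa), the peptide editors H2-DMa, H2-DMb1 and H2-DMb2, and their modulators H2-Oa and H2-Ob. The summed class II level was 155 against 0 FPKM. H2-Aa equals 1 read on 636 bases, 2 on 1069 bases or 3 on 1502 bases, and H2-Eb1 1 read on 936 bases or 2 on 1669 bases. At 1 read the nucleolin library's 0 allows up to 123 FPKM for H2-Aa and 70.2 FPKM for H2-Eb1, both above the IgG values, and at 2 reads up to 59.0 and 34.3 FPKM, both below them. Ciita, the transactivator on which class II transcription depends, was listed at 0 in both libraries.

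Cd74 (chromosome 18, 60803849 to 60812652), the class II invariant chain, was listed in both libraries, and a contrast with the class II chains was not tested. It was at 34.8 FPKM with IgG and 123 FPKM with anti-nucleolin, the highest nucleolin level of all 52 genes, with a ratio of 3.53 and a log2 difference of 1.79. That difference was 1.01 with the highest transcript row in place of the sum, and 3.06 after centring on all genes. The IgG value lay on 1 of the 2 listed transcripts, that with accession NM_001042605, and was 0 on the other, NM_010545. In the nucleolin library the same transcripts were at 51.6 and 71.3 FPKM, so that NM_010545 held 58.0% of the gene's value. If the IgG value is 1 read, the first transcript has 1415 bases and its nucleolin value equals 3.71 reads, not a whole number, so reads were divided between the 2 isoforms and no interval was computed for the gene.

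Of the costimulatory genes only Cd80, a ligand of CD28 on T cells, was measured. Cd80 (chromosome 16, 38457430 to 38495958) was at 0 FPKM with IgG and 11.2 FPKM with anti-nucleolin. The latter equals 1 read on 1700 bases, and at 1 read a 0 in the IgG library allows up to 84.6 FPKM. The gene is long, so its span bounds it only at 26 reads, where the limit would be 3.32 FPKM, and whether it reaches 8 reads is not known. Cd86, the other CD28 ligand, and Cd40, the receptor for the T cell CD40 ligand, were listed at 0 in both libraries. In all, 38 of the 52 genes were at 0 in both, beside 20696 of all 23924 symbols.

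**Figure D3:**
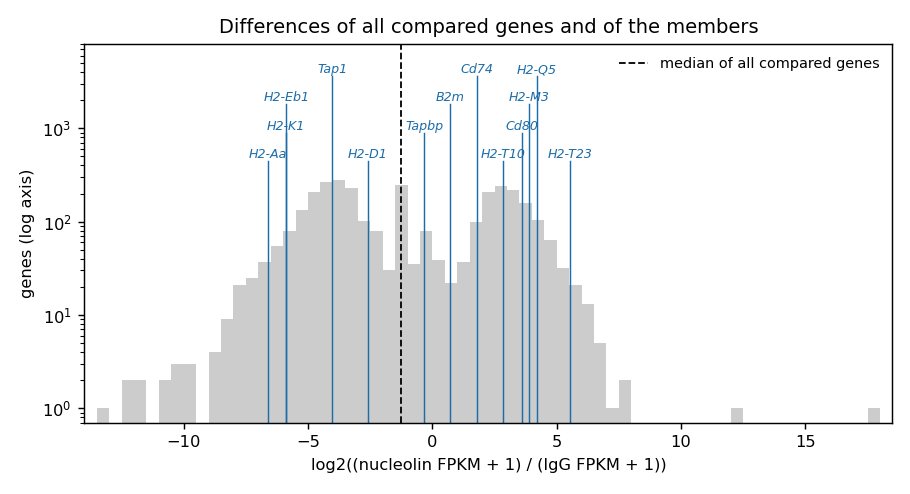
Number of genes (log axis) by log2((nucleolin FPKM + 1) / (IgG FPKM + 1)) for the 3194 compared genes, with the 13 measured members marked and the median of all genes (-1.27) dashed. The members fall in both outer humps, which hold mostly genes listed in 1 library, and Tapbp, B2m and Cd74 lie between them.

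Other genes of the presentation pathway came from 4 lists with 42 genes in the table, of which 19 were measured, 8 of them higher, 5 lower and 6 within 2-fold, beside 37.8% higher and 56.7% lower over all compared genes. Of the 19, 10 were listed in 1 library only. Their median log2 difference was 0.94, and 0.23 over the 9 listed in both libraries, beside -1.27 and -1.19 for all genes. Of 9 class I loading and regulatory genes 4 were measured, 1 higher and 3 within 2-fold. Calr, the calreticulin that binds new heavy chains, was at 48.6 FPKM with IgG and 48.0 FPKM with anti-nucleolin, matching 2 and 5 reads. Pdia3, the disulfide isomerase of the loading complex, was at 17.3 and 34.1 FPKM, matching 1 and 5 reads. Canx, the calnexin that folds heavy chains, was at 0 and 24.5 FPKM. The regulators Nlrc5, Irf1 and Irf2 and the tapasin relative Tapbpl were listed at 0 in both.

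Of 5 genes for the immunoproteasome and its activator 3 were measured, 1 in the IgG library only and 2 in the nucleolin library only. Over all compared genes these shares were 46% and 37.1%. The side of each was fixed once it passed the minimum, so the sides are given as values only. Psme1 was at 164 FPKM with IgG and 0 with anti-nucleolin, while its partner Psme2 was at 0 and 29.2 FPKM. Psmb9, an interferon-induced catalytic subunit, was at 0 and 28.7 FPKM. Psmb8 and Psmb10, the other catalytic subunits, were listed at 0 in both.

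Of 16 listed class II processing genes 9 were measured, 3 higher, 3 lower and 3 within 2-fold, beside the same shares over all genes, and their median was 0.23 against -1.27. Ctss, the cathepsin that removes the last of the invariant chain, was at 73.2 FPKM with IgG and 29.2 FPKM with anti-nucleolin. Ctsd, a lysosomal aspartic protease, was at 24.1 and 57.3 FPKM, matching 1 and 6 reads, with an exact 95% interval of the ratio from 0.288 to 109. Ctsl, at 71.7 and 47.3 FPKM, matched 3 and 5 reads, and its interval, from 0.128 to 4.25, spanned 1 as well. Lgmn, an asparagine-specific endopeptidase, was at 0 and 20.03 FPKM. Spi1, the macrophage transcription factor PU.1, was called lower at 37.4 and 14.9 FPKM, which is 1 read in each library. Of 12 further presenting and costimulatory genes found there 3 were measured: Mr1, which presents vitamin B metabolites, at 18.3 FPKM with IgG and 0 with anti-nucleolin, and Cd83 and Icam1 at 8.63 and 7.12 FPKM with anti-nucleolin and 0 with IgG.

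**Figure D4:**
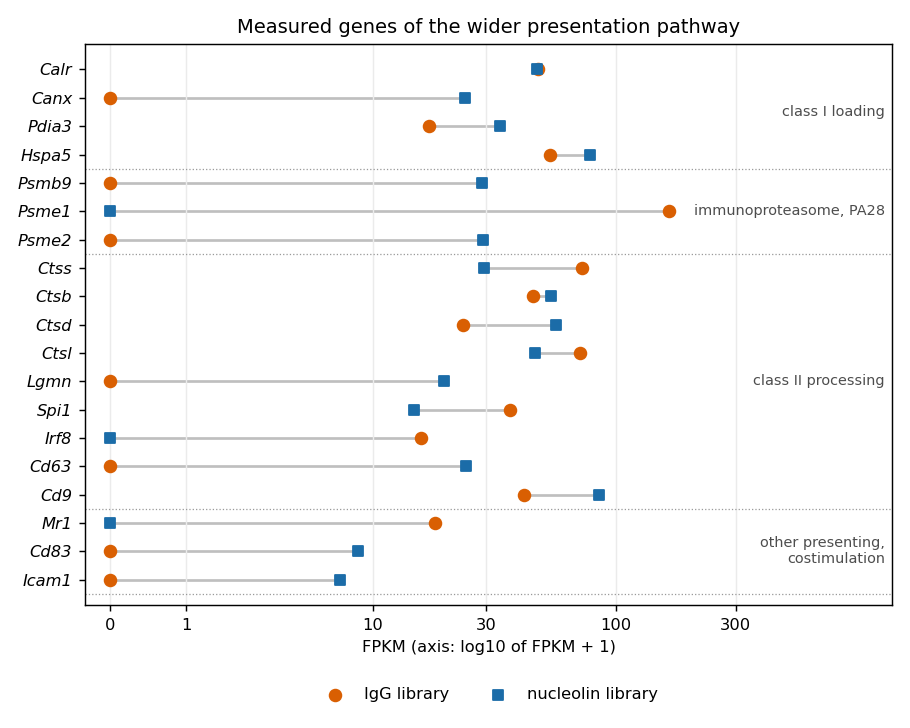
FPKM of the 19 measured genes of the wider presentation pathway in the IgG (circles) and nucleolin (squares) library, 1 library each, on an axis of log10(FPKM + 1). Psme1, Irf8 and Mr1 are at 0 in the nucleolin library, and 7 genes are at 0 in the IgG library.

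Gastric, pancreatic and epithelial markers, where measured, were above 0 in the IgG library alone and stand beside all of these values. Whether the antibody had a part in this was not tested. Of 11 listed macrophage markers 9 were measured, and they summed to 676 FPKM with IgG and 636 FPKM with anti-nucleolin. Behind these sums 4 of the 9 were higher, 3 lower and 2 within 2-fold, beside 37.8% higher and 56.7% lower over all compared genes. Of the 3 lower ones, Tyrobp and Mpeg1 matched 1 read in each library, which is called lower because an IgG read is worth more. The 4 higher ones, Lyz2, Csf1r, Fcgr1 and Itgam, were at 0 in the IgG library. Lyz2 was at 0 with IgG and 200 FPKM with anti-nucleolin, and Cd68 at 138 and 16.2 FPKM. Of 8 gastric and pancreatic secretory markers 7 were listed in the IgG library, with 18361 FPKM in sum, and all 8 were at 0 in the nucleolin library. The 6 epithelial markers summed to 448 FPKM with IgG, where only Epcam was at 0, and all 6 were at 0 with anti-nucleolin. The share listed in the IgG library only was 46% over all compared genes. Of the cell types that carry much class II, all 8 dendritic cell markers were at 0 in both libraries. The 6 B cell markers in the table were at 0 in the IgG library, with Cd22 alone at 4.39 FPKM in the nucleolin library. Over all symbols 20696 of 23924 were at 0 in both libraries, so these zeros say little about those cells. The part that RNA of other cells had in the IgG-only values of H2-K1, H2-Aa, H2-Eb1 and Tap1, or in the IgG values of H2-D1 and the other members, was not tested.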

How the data were processed

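The authors deposited FPKM values per RefSeq transcript (33529 rows), per the file headers. FastQC 0.10.0, Trimmomatic 0.32 and build mm10 were used, per the submitters' processing notes; no aligner, quantification tool or strand setting is given in the sources used here. The column headed NCL was taken as the library titled as nucleoplasmic RNA, which the design text ties to the nucleolin antibody. Rows were summed per gene symbol, leaving out 56 without one. Of the 52 genes 50 were found by gene identifier in a RefSeq table of GRCm38.p6, the source of positions and spans.

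The worth of a read came from protein-coding genes with 1 row and a span of at most 4000 bases, since the span of a gene without introns is its transcript length. In the IgG library 19 of 170 such genes lay at whole reads, against at most 6 at settings over 2% away. The nucleolin figures came from 149 of 166 genes at the ratio of equal reads, fitted on the IgG figures; by spans alone 6 of 128 nucleolin genes matched, too few to fix them. By the usual definition of FPKM they imply 23667 and 60892 scaled fragments; the totals are not stated. For members, up to 30 reads per library were tried. The steps were tested on simulated data, with scipy 1.17.1, numpy 2.4.6, pandas 2.3.3 and Python 3.11.15.

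The genes, lists and calls were chosen with earlier results of these data known. All members at 1 FPKM or more are named. The 7 alternatives were pseudocounts of 0.1 and 5, no minimum and a minimum of 10 FPKM, centring on all genes or on equal reads, and the highest transcript row in place of the sum.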

Additional observations from a re-analysis of the deposited data

How the results depend on the processing

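The numbers of members called higher (6) and lower (5) were 5 to 7 and 5 under the 7 alternatives; 9 of these 11 members are at 0 in 1 library, so this shows little about stability. The median log2 difference over the measured members was 0.70 as reported, 0.36 with no minimum (14 members), 0.19 at a minimum of 10 FPKM (12 members), 1.97 when centred on all compared genes and 1.92 with 1 read set equal. The log2 difference of the summed class I heavy chains, -0.90, turned to 0.37 after centring and to 0.32 after setting 1 read equal, as that of Tapbp did, to 0.94 and 0.90. Both alternatives add a constant, so a value below 0 by less than that constant turns by construction. That of the summed class II chains, -7.29, was -10.60 and -5.00 with pseudocounts of 0.1 and 5, -6.02 when centred and -6.06 with 1 read set equal; with a nucleolin value of 0 its size is set by the pseudocount. No paired analysis was possible because each antibody has 1 library. Depth limits every member: no value for which whole reads were found rests on more than 5 IgG reads at the smallest pair, and gene span, not transcript length, bounds the reads of genes listed in 1 library.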
